A study of Homo sapiens with 36 samples.

Results

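The genes described here are those of the nuclear pore complex, 30 nucleoporin genes out of 19775 genes represented on the arrays. They were taken from a list of nucleoporins, and the set was singled out for the time dependence of NUP85 with Ota, so that pattern is a description here and was not tested. The cells were HK-2, an established line of immortalized human proximal tubule epithelial cells. Total RNA was hybridised to 36 single-colour Affymetrix arrays, 3 biological replicates in each of 12 groups. Cells were seeded 24 h before treatment and were near confluence when treated, in a medium without serum that held EGF, insulin, transferrin, selenite and hydrocortisone. Cells that received Aa (vehicle control, low dose or high dose) were collected at 24 h and 48 h, and cells that received Ota (the same 3 arms) at 24 h and 72 h. Vehicle controls were made for either compound at either time. Compound names in full and concentrations are not in the labels, so doses of Aa and Ota are not matched and their values stand side by side without a comparison. All groups are 1 cell line, and the labels call the replicates biological without saying how the cultures differed, so p-values measure the spread between these samples only.

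The nuclear pore complex is the channel through the nuclear envelope that carries proteins and RNA between nucleus and cytoplasm. Y-shaped complexes form its outer rings, an inner ring holds the central channel, and a membrane ring anchors the pore. Nucleoporins with phenylalanine-glycine repeats fill the channel and bind import and export receptors, filaments on the cytoplasmic face help to release exported mRNA, and a basket faces the nucleus. In dividing cells pores are taken apart in mitosis and rebuilt in the daughter cells, and new pores are inserted as the nucleus grows.

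Levels are the deposited log2 values, so a difference of 1 is a doubling. Values at or under 4 were treated as having no dependable order. Each gene was read from its probe set with the highest mean over all arrays, and all 30 members exceeded 4 on at least 3 arrays of each compound. Changes are treated minus control in log2 with the standard error from limma (3 arrays against 3, n = 3 per group), and a gene was called where the p adjusted by Benjamini-Hochberg was under 0.05 (over all 10972 genes tested with Aa or 11029 with Ota, two-sided). Between 10055 and 10557 genes exceeded 4 on an array, and the lowest counts belonged to Ota high dose at 24 h (10055 to 10216, against 10406 to 10508 in its controls). The 3' to 5' difference of ACTB, a measure of RNA integrity, was 1.29 ± 0.15 (SD, n = 3) in the 72 h Ota controls and 1.88 ± 0.37 with the high dose, and 0.86 ± 0.22 in the 48 h Aa controls and 1.25 ± 0.30 with the high dose. Its part in the results was not tested. Because whole cultures were measured, fewer cells of one kind and less RNA per cell cannot be told apart. The epithelial and tubular genes KRT8, KRT18, KRT19, VIM, CDH2 and PAX8 exceeded 4 on every array. ANPEP, AQP1, LRP2, CUBN and SLC34A1, markers of mature proximal tubule, exceeded 4 on none.

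Promoter sequences of 28 of the 30 members were found in RefSeq (build GRCh38.p14), each 300 bases long and running from 250 bases before the gene's start to 50 after it. They were rich in CpG, with a median of 27 CpG against 14 over all 27305 promoters, and a median GC content of 63.5% against 58.3%. The letters CCGGAAG, which ETS factors bind, were found on either strand in 12 of the 28 (42.9%), against 10.7% of all promoters. The NRF1 letters GCATGCGC were in 3 (10.7%, against 3.27% of all), the YY1 letters AAGATGGC in 4 (14.3%, against 3.03%), CCAAT in 11 (39.3%, against 35.7%) and the cell cycle element TTTGAA in 6 (21.4%, against 15.4%). Any of the E2F letters TTTGGCGC, TTTCCCGC and TTTGGCGG occurred in 2 (7.14%, against 2.95%). Such matches describe the sequence and are not sites of binding. The 250 bases before the start are shown for NUP85, for NUP214 and NUP107, which had the highest Pearson's r with NUP85 over the 12 group means (an order that depends on the Ota high dose group at 24 h), and for POM121, which was chosen after its values were seen because it changed most regularly. Capitals mark the letters searched.
NUP85, chr17:75205429-75205678, + strand: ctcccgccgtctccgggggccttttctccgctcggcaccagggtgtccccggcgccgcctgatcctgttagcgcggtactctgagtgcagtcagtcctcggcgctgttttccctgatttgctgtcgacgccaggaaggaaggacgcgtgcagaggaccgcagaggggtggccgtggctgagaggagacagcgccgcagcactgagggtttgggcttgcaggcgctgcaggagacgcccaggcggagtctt
NUP214, chr9:131125336-131125585, + strand: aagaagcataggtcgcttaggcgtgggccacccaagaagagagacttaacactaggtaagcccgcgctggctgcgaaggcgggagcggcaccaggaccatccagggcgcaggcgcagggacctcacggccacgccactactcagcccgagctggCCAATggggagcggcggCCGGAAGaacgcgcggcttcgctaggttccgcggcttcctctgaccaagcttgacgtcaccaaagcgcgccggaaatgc
NUP107, chr12:68686728-68686977, + strand: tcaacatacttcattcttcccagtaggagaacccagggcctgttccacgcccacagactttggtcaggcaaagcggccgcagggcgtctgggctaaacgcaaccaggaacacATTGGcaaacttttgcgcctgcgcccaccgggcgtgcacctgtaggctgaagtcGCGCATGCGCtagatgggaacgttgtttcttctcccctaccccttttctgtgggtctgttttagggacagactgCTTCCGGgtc
POM121, chr7:72879107-72879356, + strand: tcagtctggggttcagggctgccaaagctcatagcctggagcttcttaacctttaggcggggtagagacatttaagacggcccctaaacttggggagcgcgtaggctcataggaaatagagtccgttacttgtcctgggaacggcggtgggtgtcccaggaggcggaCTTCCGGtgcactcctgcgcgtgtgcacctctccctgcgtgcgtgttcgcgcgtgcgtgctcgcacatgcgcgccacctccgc
None of the searched letters stood in these 250 bases of NUP85, whose single match was a CCAAT on the opposite strand 42 bases into the gene. NUP214 had a CCAAT starting 96 bases before its start and an ETS match at 79. NUP107 had a CCAAT on the opposite strand at 138, overlapping NRF1 matches on both strands at 84 and 82, and an ETS match on the opposite strand at 10. POM121 had 1 ETS match, on the opposite strand at 83.

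With Aa high dose, 15 of the nucleoporin genes moved at 24 h and 16 at 48 h, most of them upward and by less than 2-fold. At 24 h the high dose raised 11 of the 30 members and lowered 4, where 51.3% of all tested genes were called (27.4% higher, 24.0% lower). At 48 h it raised 11 and lowered 5, where 66.0% were called (30.9% higher, 35.1% lower). The share of members called, without regard to replicate pairing, was 50% at 24 h and 53.3% at 48 h, near or under the background of that fit. The members' median change was 0.23 at 24 h (0.03 over all tested genes) and 0.15 at 48 h (-0.04 over all). The low dose raised 3 and lowered 2 at 24 h (background 25.1%, 11.6% higher and 13.5% lower), and raised 6 and lowered 1 at 48 h (background 37.9%, 18.8% higher and 19.1% lower). High against low dose, 5 members were higher and 2 lower at 24 h (background 27.1%, 17.1% higher and 9.95% lower), and 10 were higher and 7 lower at 48 h (background 46.5%, 20.9% higher and 25.6% lower). Replicate numbers paired the Aa arrays, and with the number as a block the counts were 15 higher and 9 lower at the high dose at 24 h (63.2% of all genes called), 7 and 4 at the low dose at 24 h (39.4%), 9 and 5 for high against low at 24 h (41.5%), and 9 and 3 at the low dose at 48 h (53.2%). At the high dose at 48 h it gave 15 higher and 9 lower (74.4%). In that paired fit 24 of the 30 members were called at the high dose at each time, above the share of all genes. The upward balance at 24 h depended on the scale: with arrays shifted to a common median 9 members were higher and 7 lower at the high dose (46.3% instead of 53.3% of all calls upward), and 2 were higher and 4 lower for high against low dose (45.9% instead of 63.2% of all calls upward). With all 36 arrays in 1 fit the high dose at 24 h gave 8 higher and 6 lower.

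The calls that the block added with Aa high dose were small on the main probe sets. At 24 h they were NUP43 (0.23), NUP37 (0.24), NUP62 (0.37) and NUP58 (0.25) upward and SEC13 (-0.21), NUP93 (-0.32), NUP98 (-0.46), AAAS (-0.60) and TPR (-0.24) downward, with adjusted p from 0.00216 to 0.0442. At 48 h they were NUP155 (0.24), NUP58 (0.24), NUP54 (0.24) and NUP88 (0.29) upward and NUP133 (-0.26), NUP93 (-0.24), AAAS (-0.39) and NUP153 (-0.29) downward, with adjusted p from 0.0081 to 0.0425. As the mean of their probe sets some of these genes read otherwise. NUP43 was lower at 24 h (-0.49, adjusted p = 0.0442), and NUP153 was higher at 48 h (0.395, adjusted p = 0.00886). Larger changes in the same direction were read at 48 h for NUP88 (1.81, adjusted p = 6.46e-06), NUP58 (0.99, adjusted p = 8.78e-05) and NUP133 (-0.61, adjusted p = 0.000117). NUP88 was also called higher so at 24 h (0.77, adjusted p = 0.0114). At the low dose the block added NUP43, NUP62, NUP214 and NUP210 upward and NUP88 and AAAS downward at 24 h, and AHCTF1, NUP54 and NUP214 upward and NUP133 and AAAS downward at 48 h, with changes from -0.50 to 0.45.

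Of the Aa low dose calls, POM121 and NUP155 at 24 h and POM121, RAE1, NUP62 and NUP50 at 48 h were kept whichever array was left out. At 24 h NUP54 (0.37 ± 0.12, adjusted p = 0.0312) was lost without the first or second control array or the first or the third low dose array (adjusted p from 0.0697 to 0.124). At 48 h NUP58 (0.36 ± 0.12, adjusted p = 0.0256) and NUP42 (0.46 ± 0.15, adjusted p = 0.0286) were each lost without the first or second control array or the first or the third low dose array (adjusted p from 0.0561 to 0.115). NUP50 rose by 0.34 ± 0.10 at 48 h (adjusted p = 0.0144), which was lost only in the fit of all 36 arrays (adjusted p = 0.0787).

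With Ota, the 29 members other than NUP85 moved both ways at 24 h and mostly upward at 72 h. These comparisons make up the contrast in time for which NUP85 was chosen, so NUP85 is left out of their counts. At the high dose 5 were higher and 10 lower at 24 h, where 64.0% of all tested genes were called, and 19 were higher and 2 lower at 72 h, where 63.4% were called. Of all genes 21.6% were called higher and 42.4% lower at 24 h, and 26.3% higher and 37.0% lower at 72 h. The members' median change was -0.09 at 24 h (-0.26 over all tested genes) and 0.67 at 72 h (-0.12 over all). At least 2-fold changes were made by 2 members upward and 6 downward at 24 h (8.17% and 29.5% of all genes), and by 9 upward and 2 downward at 72 h (12.8% and 24.6% of all genes). The low dose raised 1 and lowered 1 at 24 h (background 14.7%, 4.66% higher and 10.0% lower), and raised 8 and lowered 1 at 72 h (background 17.1%, 9.79% higher and 7.28% lower). High against low dose, 6 were higher and 9 lower at 24 h (background 58.1%, 19.4% higher and 38.7% lower), and 14 were higher and 3 lower at 72 h (background 58.4%, 21.7% higher and 36.7% lower). At the low dose at 72 h POM121, NUP205, NUP188, NUP210 and the fall of SEC13 were called whichever array was left out, while NUP107 (0.45 ± 0.13), NUP93, NUP155 (0.44 ± 0.13) and NUP153 (0.41 ± 0.13) were each lost without at least 4 of the 6 arrays in turn (adjusted p from 0.0506 to 0.123), the first control array and the first low dose array among them. Without the first control array 5 members were called. The scale of the Ota high dose arrays at 24 h bears on the direction: with all arrays shifted to a common median the median change of all genes moved from -0.26 to 0.38, 63.8% instead of 33.7% of all calls were upward, and the members counted 18 higher and 6 lower. High against low dose at 24 h it turned the members' 6 higher and 9 lower into 17 higher and 5 lower, with 63.6% instead of 33.4% of all calls upward. At the low dose at 24 h the upward share of all calls went from 31.7% to 55.7%, with POM121 the 1 member called. The same shift at 72 h moved the share of upward calls over all genes from 41.5% to 58.6% and left 22 members higher and 2 lower. For high against low dose at 72 h it moved that share from 37.2% to 59.0%, with 22 higher and 2 lower.

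**Figure D1:**
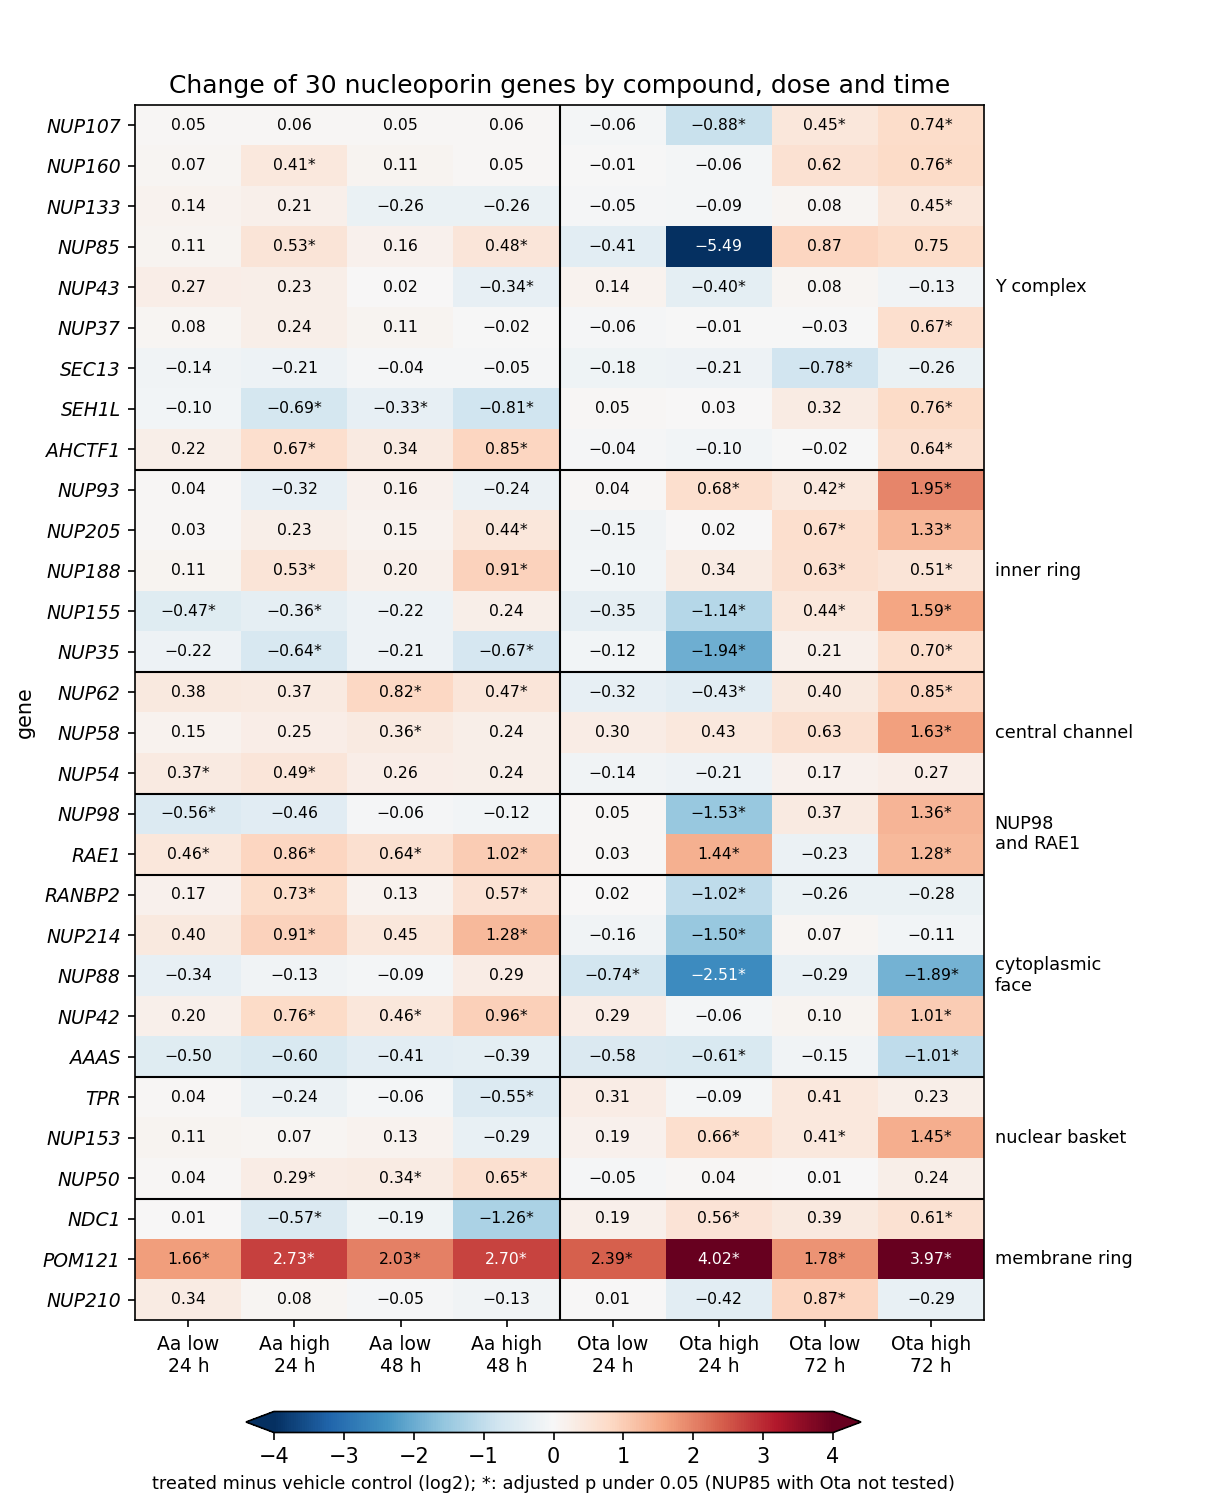
Heat map of the log2 change of the 30 nucleoporin genes (rows, grouped by their place in the pore) in the 8 comparisons of a dose with its vehicle controls (columns, 3 arrays against 3). Stars mark an adjusted p under 0.05; NUP85 with Ota was not tested. POM121 is higher in all 8 columns, and the Ota high dose column at 72 h is mostly above 0 while that at 24 h is mixed.

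NUP85 encodes a scaffold subunit of the Y complex. In the Ota vehicle controls it read 10.16, 10.39 and 10.23 at 24 h and 8.59, 8.76 and 8.68 at 72 h. With the high dose it read 4.26, 3.25 and 6.78 at 24 h and 9.52, 9.01 and 9.73 at 72 h. With the low dose it read 9.85, 9.70 and 10.01 at 24 h and 9.58, 9.58 and 9.47 at 72 h. At 24 h every high dose array lay far under every control and low dose array, at 72 h every treated array lay above every control, and the control level itself was lower at 72 h than at 24 h. The high dose minus control difference was -5.49 at 24 h, or -5.24 with values at or under 4 set to 4, since 1 of the 3 arrays was under that floor. The arrays of that group were widely spread: leaving out replicate 3 gave -6.50, and leaving out replicate 2 gave -4.74. At 72 h the high dose mean was higher by 0.75 and the low dose mean by 0.87, and the 72 h controls were lower than the 24 h controls by 1.59. Only 1 probe set reads NUP85, so no second reading of this pattern exists on the array.

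With Aa, which the choice of genes did not use, NUP85 moved little and upward. Controls read 10.49, 10.74 and 10.82 at 24 h and 10.10, 10.19 and 10.53 at 48 h. High dose arrays read 11.12, 11.15 and 11.36 at 24 h and 10.55, 10.81 and 10.89 at 48 h, all above all controls of their time, while low dose arrays overlapped the controls at both times. NUP85 rose by 0.53 ± 0.15 at 24 h (adjusted p = 0.00842) and by 0.48 ± 0.15 at 48 h (adjusted p = 0.0113). High against low dose it was called only with the replicate block (0.41 and 0.32, adjusted p = 0.000514 and 0.00178), as was its lower level in the 48 h than in the 24 h Aa controls (-0.41, adjusted p = 0.00294). The call against controls at 48 h was lost without the first control array (adjusted p = 0.0552). Both were lost when all 36 arrays were fitted together (adjusted p = 0.326 and 0.342), a fit whose spread for NUP85 includes the Ota high dose group at 24 h (SD 1.82).

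**Figure D2:**
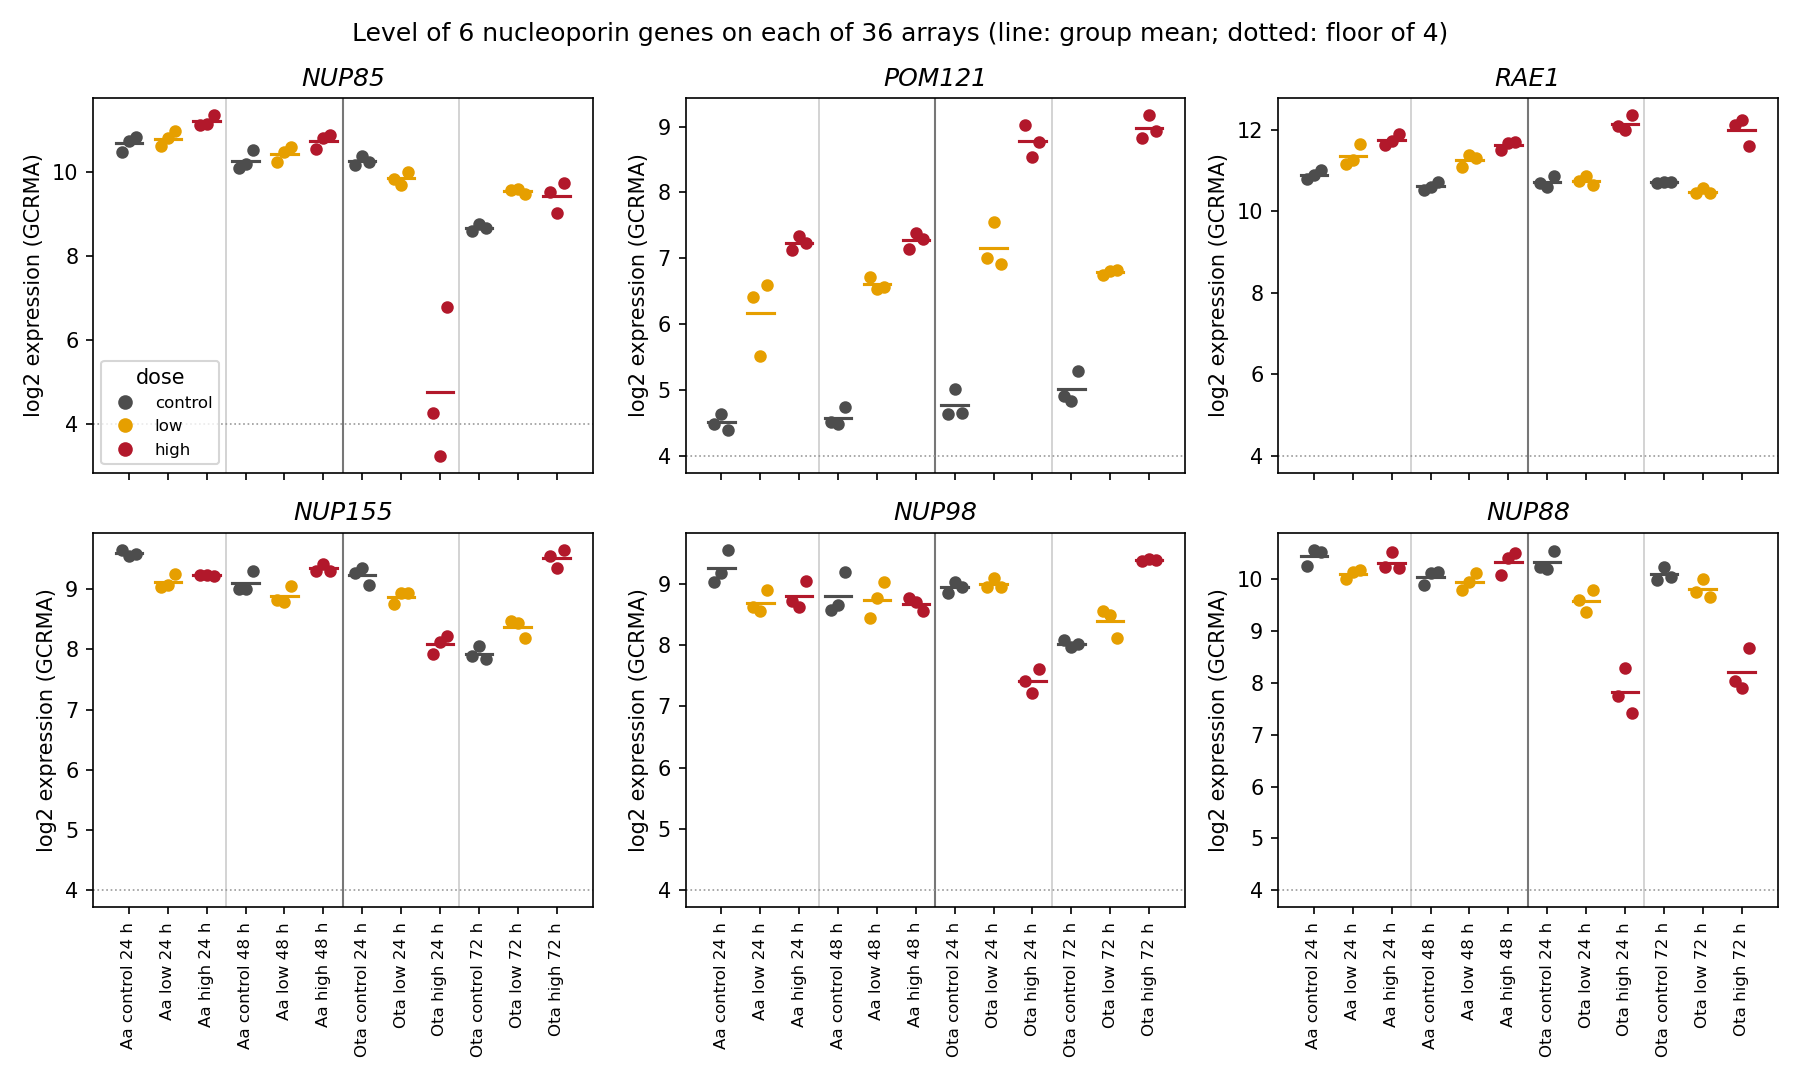
Log2 level of 6 nucleoporin genes on each of the 36 arrays, by group, with the group mean as a line and the floor of 4 dotted; colours give the dose. NUP85 stands at 4.26, 3.25 and 6.78 in Ota high dose at 24 h, POM121 climbs with dose for both compounds at every time, and NUP155 and NUP98 lie under their controls at 24 h and above them at 72 h with the Ota high dose.

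The other subunits of the Y complex form the same rings: NUP107, NUP160, NUP133, NUP43 and NUP37, together with SEC13, SEH1L and AHCTF1 (ELYS). SEC13 also serves vesicle coats and nutrient sensing, SEH1L also serves nutrient sensing, and AHCTF1 starts pore assembly on chromatin. With Aa high dose SEH1L fell, and AHCTF1 rose at both times. SEH1L read 10.33, 10.48 and 10.57 in the 24 h controls and 9.77, 9.89 and 9.64 at the high dose; at 48 h it read 10.30, 10.52 and 10.35 in controls, 10.05, 10.00 and 10.13 at the low dose and 9.55, 9.61 and 9.59 at the high dose. The groups did not overlap, and at 48 h the 3 arms lay in order of dose. SEH1L fell by 0.69 ± 0.10 at 24 h (adjusted p = 3.68e-05) and by 0.81 ± 0.10 at 48 h (adjusted p = 4.22e-06), and the low dose at 48 h lowered it by 0.33 ± 0.10 (adjusted p = 0.0164, 0.0777 without the second control array). A dimmer probe set of SEH1L did not follow (0.23 ± 0.20 and 0.27 ± 0.20, not called), and the mean over both sets was not called (adjusted p = 0.144 and 0.0755).

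AHCTF1 rose by 0.67 ± 0.15 at 24 h (adjusted p = 0.00167) and by 0.85 ± 0.15 at 48 h (adjusted p = 0.000156) with Aa high dose. Its second probe set was not called at 24 h (0.15) and was lower at 48 h (-0.49 ± 0.10, adjusted p = 0.000815), so the readings of AHCTF1 disagree at 48 h, and their mean was not called (0.18, adjusted p = 0.131). NUP43 fell by 0.34 ± 0.11 at 48 h (adjusted p = 0.0148), a call lost without the second control array or the third high dose array (adjusted p = 0.0694 and 0.0554). NUP160 rose by 0.41 ± 0.16 at 24 h (adjusted p = 0.0456), but the call was lost in leaving out any of its 6 arrays except the third high dose array (adjusted p from 0.0635 to 0.217) and under 4 other settings, 1 of which turned its sign (-0.11 as the mean of its probe sets). NUP107, NUP133, NUP37 and SEC13 were not called with either dose of Aa without the replicate block, and their changes lay between -0.26 and 0.24.

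With Ota high dose 2 of the other 8 Y complex subunits fell at 24 h and 6 rose at 72 h, as read from the main probe sets. NUP107 went both ways: it read 10.68, 10.67 and 10.68 in the 24 h controls against 9.67, 9.98 and 9.73 at the high dose, then 9.51, 9.90 and 9.63 in the 72 h controls against 10.47, 10.24 and 10.55. It fell by 0.88 ± 0.13 at 24 h (adjusted p = 1.6e-05) and rose by 0.74 ± 0.13 at 72 h (adjusted p = 9.18e-05). The groups were apart at both times, in opposite directions. NUP43 fell by 0.40 ± 0.12 at 24 h (adjusted p = 0.0076). With arrays shifted to a common median the fall of NUP107 at 24 h was not called (-0.25, adjusted p = 0.143) and NUP43 turned positive (0.24, adjusted p = 0.157). At 72 h NUP160 rose by 0.76 ± 0.21, NUP37 by 0.67 ± 0.19, SEH1L by 0.76 ± 0.12 and AHCTF1 by 0.64 ± 0.16 (adjusted p from 3.2e-05 to 0.00691). NUP133 rose by 0.45 ± 0.16 (adjusted p = 0.0222), which was lost without the first or the third control array or the first or second high dose array (adjusted p from 0.0613 to 0.076). The rise of NUP160 was not called as the mean of its probe sets (0.35, adjusted p = 0.123). Second probe sets differed in part. At 72 h their high dose and control means were 8.375 and 5.29 for NUP37, 11.37 and 9.65 for AHCTF1, and 6.53 and 5.88 for SEH1L. Their effects were higher at 72 h than at 24 h by 0.34, 0.93 and 1.99 in that order, given as values only. By these values the NUP37 and AHCTF1 sets lay above their controls at 24 h too, and the SEH1L set lay under them. SEC13 was not called at the high dose, and it fell by 0.78 ± 0.15 at the low dose at 72 h (11.63, 11.52 and 11.78 in controls against 10.77, 11.04 and 10.78; adjusted p = 0.00205).

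The inner ring (NUP93, NUP205, NUP188, NUP155 and NUP35) links the membrane to the central channel. All 5 genes rose with Ota high dose at 72 h, when 3 more than doubled. NUP93, which holds the channel nucleoporins in place, read 8.87, 8.84 and 8.89 in the 72 h controls, 9.27, 9.22 and 9.36 at the low dose and 10.73, 10.95 and 10.78 at the high dose. Its arms lay apart in order of dose, with changes of 0.42 ± 0.11 (adjusted p = 0.0172) and 1.95 ± 0.11 (adjusted p = 1.36e-09). It also rose at 24 h at the high dose, by 0.68 ± 0.11 (adjusted p = 6.95e-05). The scaffold gene NUP205 rose by 1.33 ± 0.11 at the high dose at 72 h (adjusted p = 5e-08) and by 0.67 ± 0.11 at the low dose (adjusted p = 0.000614), with no change called at 24 h.

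NUP155, an inner ring gene that contacts the pore membrane, fell early and rose late with Ota. Controls read 9.26, 9.36 and 9.07 at 24 h against 7.93, 8.12 and 8.22 at the high dose, and 7.89, 8.06 and 7.84 at 72 h against 9.56, 9.35 and 9.65. The high dose level at 72 h was thus near that of the 24 h controls, and the high dose level at 24 h near that of the 72 h controls. The changes were -1.14 ± 0.13 (adjusted p = 1.86e-06) and 1.59 ± 0.13 (adjusted p = 5.6e-08). NUP35, its membrane-binding partner, fell by 1.94 ± 0.28 at 24 h (adjusted p = 1.81e-05), from 10.30, 10.03 and 10.52 to 8.47, 7.45 and 9.11. Its rise at 72 h, 0.70 ± 0.28 (adjusted p = 0.0373), was lost in leaving out any array of that comparison except the second high dose array (adjusted p from 0.0619 to 0.0961), and without the filter on low values (adjusted p = 0.0811). NUP188 rose by 0.51 ± 0.15 at 72 h (adjusted p = 0.00591) and by 0.63 ± 0.15 at the low dose (adjusted p = 0.00729).

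With Aa the inner ring did not move as a block. NUP35 fell at the high dose by 0.64 ± 0.16 at 24 h and by 0.67 ± 0.16 at 48 h (adjusted p = 0.00415 and 0.00226). NUP188 rose by 0.53 ± 0.17 at 24 h (adjusted p = 0.0151) and by 0.91 ± 0.17 at 48 h (8.80, 8.31 and 8.89 in controls against 9.59, 9.38 and 9.78; adjusted p = 0.000181). Its call at 24 h was lost without the first or the third high dose array or the second control array (adjusted p from 0.0531 to 0.0635), and as the mean of its probe sets it was called at neither time (-0.07 and 0.04). NUP205 rose by 0.44 ± 0.12 at 48 h (adjusted p = 0.00553). NUP155 fell by 0.36 ± 0.11 at 24 h (adjusted p = 0.00943) and by 0.47 ± 0.11 at the low dose at 24 h (adjusted p = 0.00424), and at 48 h it read 0.24 ± 0.11 higher, not called without the replicate block and called with it (adjusted p = 0.0259). NUP93 was not called without the block, and with it was lower at both times (-0.32 and -0.24, adjusted p = 0.00364 and 0.016).

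The central channel trimer of NUP62, NUP58 and NUP54 carries the repeats that receptors pass through. With Ota high dose at 72 h NUP62 rose by 0.85 ± 0.14 (8.76, 8.79 and 8.67 in controls against 9.50, 9.67 and 9.60; adjusted p = 5.52e-05) and NUP58 by 1.63 ± 0.23 (7.81, 7.81 and 7.88 against 9.41, 9.26 and 9.72; adjusted p = 1.2e-05). No arrays of either gene overlapped. Another probe set of NUP58 was called the other way at 72 h (-2.14 ± 0.21), with 2 of its 3 high dose arrays at or under 4. NUP62 fell at 24 h by 0.43 ± 0.14 (adjusted p = 0.0116), a call lost without the third control array or the second high dose array (adjusted p = 0.0588 and 0.0532) and turned positive by shifting the arrays (0.20). With Aa, NUP54 rose by 0.49 ± 0.12 at the high dose at 24 h (adjusted p = 0.00256), though not as the mean of its probe sets (0.14, adjusted p = 0.113). NUP62 rose by 0.82 ± 0.20 at the low dose at 48 h (adjusted p = 0.00422) and by 0.47 ± 0.20 at the high dose (adjusted p = 0.0461). The second of these calls was lost without the first or second control array or the first or the third high dose array (adjusted p from 0.059 to 0.191). NUP54 was not called with Ota.

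RAE1 and NUP98 bind each other and take part in mRNA export, and NUP98 also makes a scaffold protein of the Y complex from its longer transcript. RAE1 rose at the high dose of both compounds at every time. Its controls lay between 10.51 and 11.01 over the 4 control groups, and its high dose arrays read 11.63, 11.73 and 11.89 for Aa at 24 h, 11.50, 11.68 and 11.69 at 48 h, 12.10, 11.98 and 12.36 for Ota at 24 h and 12.11, 12.24 and 11.61 at 72 h. No high dose array reached down to a control. The changes were 0.86 ± 0.13, 1.02 ± 0.13, 1.44 ± 0.15 and 1.28 ± 0.15 in that order (adjusted p = 7.88e-05, 8.82e-06, 7.39e-07 and 2.64e-06), and the other tested probe set of RAE1 was called the same way in all 4 comparisons (0.74, 0.93, 1.47 and 1.31). The low dose of Aa raised it by 0.46 ± 0.13 at 24 h (adjusted p = 0.0205) and by 0.64 ± 0.13 at 48 h (adjusted p = 0.00172), while the low dose of Ota left it without a call (0.03 and -0.23). The call at the low dose of Aa at 24 h was lost without the first or second control array or the third low dose array (adjusted p from 0.0542 to 0.109).

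NUP98 fell and then rose with Ota high dose. It read 8.85, 9.04 and 8.96 in the 24 h controls against 7.41, 7.22 and 7.62, and 8.08, 7.97 and 8.02 in the 72 h controls against 9.37, 9.40 and 9.38. The fall was 1.53 ± 0.13 (adjusted p = 7.05e-08) and the rise 1.36 ± 0.13 (adjusted p = 2.73e-07), and a second probe set did the same (-0.91 ± 0.19 and 1.44 ± 0.19). The third probe set of NUP98 was at least 14.5-fold lower at 24 h, from a control mean of 7.86 to 3 arrays at or under 4, and was not called at 72 h (-0.84 ± 0.47, adjusted p = 0.142). That probe set also stood at 4.61 at the low dose at 24 h (-3.25 ± 0.47, adjusted p = 0.000148, with 1 of 3 arrays at or under 4), where the main set was not called (0.05). With Aa, NUP98 fell at the low dose at 24 h (-0.56 ± 0.19, adjusted p = 0.046). That call was lost without the first or second low dose array or the second or the third control array (adjusted p from 0.0745 to 0.191), and under 4 other settings, the mean of its probe sets among them (-0.09, adjusted p = 0.699).

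On the cytoplasmic face, RANBP2, NUP214, NUP88 and NUP42 form the filaments where exported mRNA and Ran-bound receptors are released, and AAAS was listed with them. With Aa high dose RANBP2, NUP214 and NUP42 rose at both times. NUP214 read 7.58, 7.29 and 7.45 in the 48 h controls, 7.87, 7.97 and 7.83 at the low dose and 8.67, 8.59 and 8.90 at the high dose. It rose by 0.91 ± 0.19 at 24 h and by 1.28 ± 0.19 at 48 h (adjusted p = 0.000787 and 2.15e-05), and its second probe set rose by 2.58 and 2.96, with 2 of the 3 48 h control arrays of that set at or under 4. NUP42, which with GLE1 stimulates mRNA release, rose by 0.76 ± 0.15 and by 0.96 ± 0.15 (adjusted p = 0.000719 and 5.69e-05). RANBP2, the large filament protein, rose by 0.73 ± 0.12 and by 0.57 ± 0.12 (adjusted p = 0.000144 and 0.000729), but at 48 h the mean of its probe sets was not called (0.04, adjusted p = 0.736).

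With Ota high dose at 24 h 4 of these 5 genes fell. NUP88, which holds NUP214 to the pore, read 10.23, 10.20 and 10.55 in controls, 9.61, 9.36 and 9.79 at the low dose and 7.75, 8.29 and 7.42 at the high dose. Its arms lay apart in order of dose. It fell by 2.51 ± 0.22 (adjusted p = 1.13e-07), and at 72 h it was again lower, by 1.89 ± 0.22 (9.99, 10.24 and 10.05 against 8.04, 7.90 and 8.67; adjusted p = 2.6e-06). The low dose lowered it by 0.74 ± 0.22 at 24 h (adjusted p = 0.0373), which was lost without any of the 3 control arrays or the first or second low dose array (adjusted p from 0.0592 to 0.161) and under 3 other settings. NUP214 fell by 1.50 ± 0.21 at 24 h (7.48, 7.55 and 7.03 against 6.00, 6.05 and 5.51; adjusted p = 1.14e-05) and was not called at 72 h (-0.11 ± 0.21). Its second probe set was higher at 72 h, from 3 control arrays at or under 4 to a mean of 5.56 (at least 2.94-fold), and the mean of its probe sets was called higher (0.51, adjusted p = 0.0062), so the readings of NUP214 disagree there. RANBP2 fell by 1.02 ± 0.16 at 24 h (adjusted p = 3.62e-05). Of its other probe sets, 2 were called higher (0.58 ± 0.14 and 1.55 ± 0.19) and 1 lower (-0.47 ± 0.13), so the readings of RANBP2 disagree, and their mean was 0.16. AAAS, a pore protein also found at the mitotic spindle, fell by 1.01 ± 0.25 at 72 h (6.01, 6.53 and 6.50 against 5.87, 5.08 and 5.06; adjusted p = 0.0026). Its call at 24 h (-0.61 ± 0.25, adjusted p = 0.048) came with overlapping arrays, was lost in leaving out any of 5 of the 6 arrays, all but the second high dose array (adjusted p from 0.0654 to 0.245), and turned to 0.03 with shifted arrays. NUP42 rose by 1.01 ± 0.22 at 72 h (adjusted p = 0.000965).

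The nuclear basket is made of TPR, NUP153 and NUP50, which reach into the nucleus and take part in mRNA quality control and import. NUP153 rose with Ota high dose by 0.66 ± 0.13 at 24 h (adjusted p = 0.000273) and by 1.45 ± 0.13 at 72 h (10.41, 10.23 and 10.31 in controls against 11.66, 11.77 and 11.86; adjusted p = 9.03e-08). NUP50, a cofactor of importin alpha, rose with Aa high dose by 0.29 ± 0.10 at 24 h (adjusted p = 0.0256) and by 0.65 ± 0.10 at 48 h (10.32, 10.24 and 10.20 against 10.88, 10.82 and 11.03; adjusted p = 3.54e-05). At 48 h 3 further probe sets of NUP50 rose by 0.86, 1.20 and 1.10. The call at 24 h was lost without the first or second control array or the first or the third high dose array (adjusted p from 0.0511 to 0.0963), with shifted arrays (adjusted p = 0.128) and with all 36 arrays (adjusted p = 0.119).

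TPR had 5 probe sets that disagreed. With Ota high dose at 24 h the main set was not called (-0.09 ± 0.16), 2 sets were lower (-1.06 ± 0.14 and -0.93 ± 0.26), 1 was higher (1.94 ± 0.13) and 1 was not called (0.12 ± 0.24). The set that was higher was also higher at the low dose (2.50 ± 0.13 at 24 h). With Aa high dose at 48 h the main set fell by 0.55 ± 0.14 (adjusted p = 0.00331) while another rose by 0.49 ± 0.12 (adjusted p = 0.00268), and the mean over the sets was not called (-0.16, adjusted p = 0.373). No single direction can be given for TPR.

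The membrane ring proteins NDC1, POM121 and NUP210 span the nuclear envelope, and POM121 takes part in building new pores. POM121 was the member with the most regular response: it was called higher in all 8 comparisons with controls and in all 4 of high with low dose. Controls read 4.49, 4.64 and 4.39 for Aa at 24 h, 4.50, 4.48 and 4.74 at 48 h, 4.64, 5.01 and 4.65 for Ota at 24 h and 4.91, 4.83 and 5.29 at 72 h. High dose arrays read 7.13, 7.33 and 7.24, then 7.14, 7.38 and 7.30 for Aa, and 9.03, 8.55 and 8.77, then 8.83, 9.18 and 8.94 for Ota. Low dose arrays lay between the controls and the high dose at every time, from 5.51 to 7.54, without overlap. POM121 rose at the high dose by 2.73 ± 0.20 and 2.70 ± 0.20 with Aa at 24 h and 48 h (adjusted p = 1.01e-07 and 4.05e-08). With Ota it rose by 4.02 ± 0.19 at 24 h and by 3.97 ± 0.19 at 72 h (adjusted p = 1.29e-10 and 1.8e-10). The low dose raised it by 1.66 ± 0.20 and 2.03 ± 0.20 with Aa and by 2.39 ± 0.19 and 1.78 ± 0.19 with Ota (adjusted p from 7.87e-07 to 4.23e-05). POM121 has near-identical relatives, and only 1 probe set is assigned to it alone, so signal from a relative's transcript cannot be told apart from its own.

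NDC1, the anchor of the membrane ring, moved down with Aa and up with Ota. With Aa high dose it fell by 0.57 ± 0.11 at 24 h (adjusted p = 0.000635) and by 1.26 ± 0.11 at 48 h (10.58, 10.66 and 10.63 in controls against 9.32, 9.51 and 9.25; adjusted p = 1.9e-07). The difference between these effects was itself called (-0.70 ± 0.16, adjusted p = 0.0076), though not as the mean over the probe sets of NDC1 (-0.28, adjusted p = 0.204). A second probe set of NDC1 did not fall (-0.16 ± 0.15 and -0.02 ± 0.15, not called). With Ota high dose NDC1 rose by 0.56 ± 0.14 at 24 h (adjusted p = 0.00217) and by 0.61 ± 0.14 at 72 h (adjusted p = 0.00102). NUP210 was called once, 0.87 ± 0.21 higher at the Ota low dose at 72 h (7.40, 7.32 and 7.48 against 8.31, 8.35 and 8.14; adjusted p = 0.00904). At the high dose it was not (-0.29 ± 0.21), and high against low it was lower by 1.16 ± 0.21 (adjusted p = 0.000194).

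Across the 4 high dose comparisons, 2 of the 29 members other than NUP85 were called higher every time (RAE1 and POM121), none was called lower every time, and 9 were called in both directions. Of 10649 genes tested with both compounds, 4.18% were called higher every time, 8.46% lower every time and 28.6% in both directions. The 9 members were NUP107, SEH1L, NUP155, NUP35, NUP62, NUP98, RANBP2, NUP214 and NDC1. Every member was called in at least 1 of the 8 comparisons with controls, but how many of all genes were was not counted. From 51.3% to 66.0% of all tested genes were called in each high dose comparison.

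The change of the Ota high dose effect between 24 h and 72 h is the contrast from which the set was chosen, and it is given as values only. Of the 29 members besides NUP85, 16 were past the call rule upward and 0 downward, where 53.8% of all genes were past it (33.0% upward, 20.8% downward). The largest changes in effect were 2.89 for NUP98, 2.73 for NUP155, 2.64 for NUP35 and 1.62 for NUP107, against 6.24 for NUP85. POM121 (-0.04) and RAE1 (-0.15) had nearly the same effect at both times. For Aa, where the contrast was not used, 3 of 30 members were called between 24 h and 48 h (background 20.7%, 7.14% higher and 13.6% lower): NUP155 upward (0.60 ± 0.15, adjusted p = 0.0115), NUP43 downward (-0.57 ± 0.16, adjusted p = 0.02) and NDC1 as above. With the replicate block 4 were higher and 4 lower (39.2% of all genes called), NUP188, NUP88 and NUP50 being added upward and NUP133 and TPR downward. With arrays shifted to a common median 2 were higher and 1 lower, and 49.7% instead of 34.4% of all calls were upward. NUP43 was not called without the first 24 h control, the second 24 h high dose array or the second 48 h control array (adjusted p from 0.0507 to 0.0558), nor with shifted arrays (adjusted p = 0.0568). For NUP155 the Aa controls moved more than the high dose arrays. Its controls read 9.653, 9.56 and 9.583 at 24 h and 9.003, 9.011 and 9.3 at 48 h. Its high dose arrays read 9.245, 9.237 and 9.222, then 9.304, 9.425 and 9.307.

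**Figure D3:**
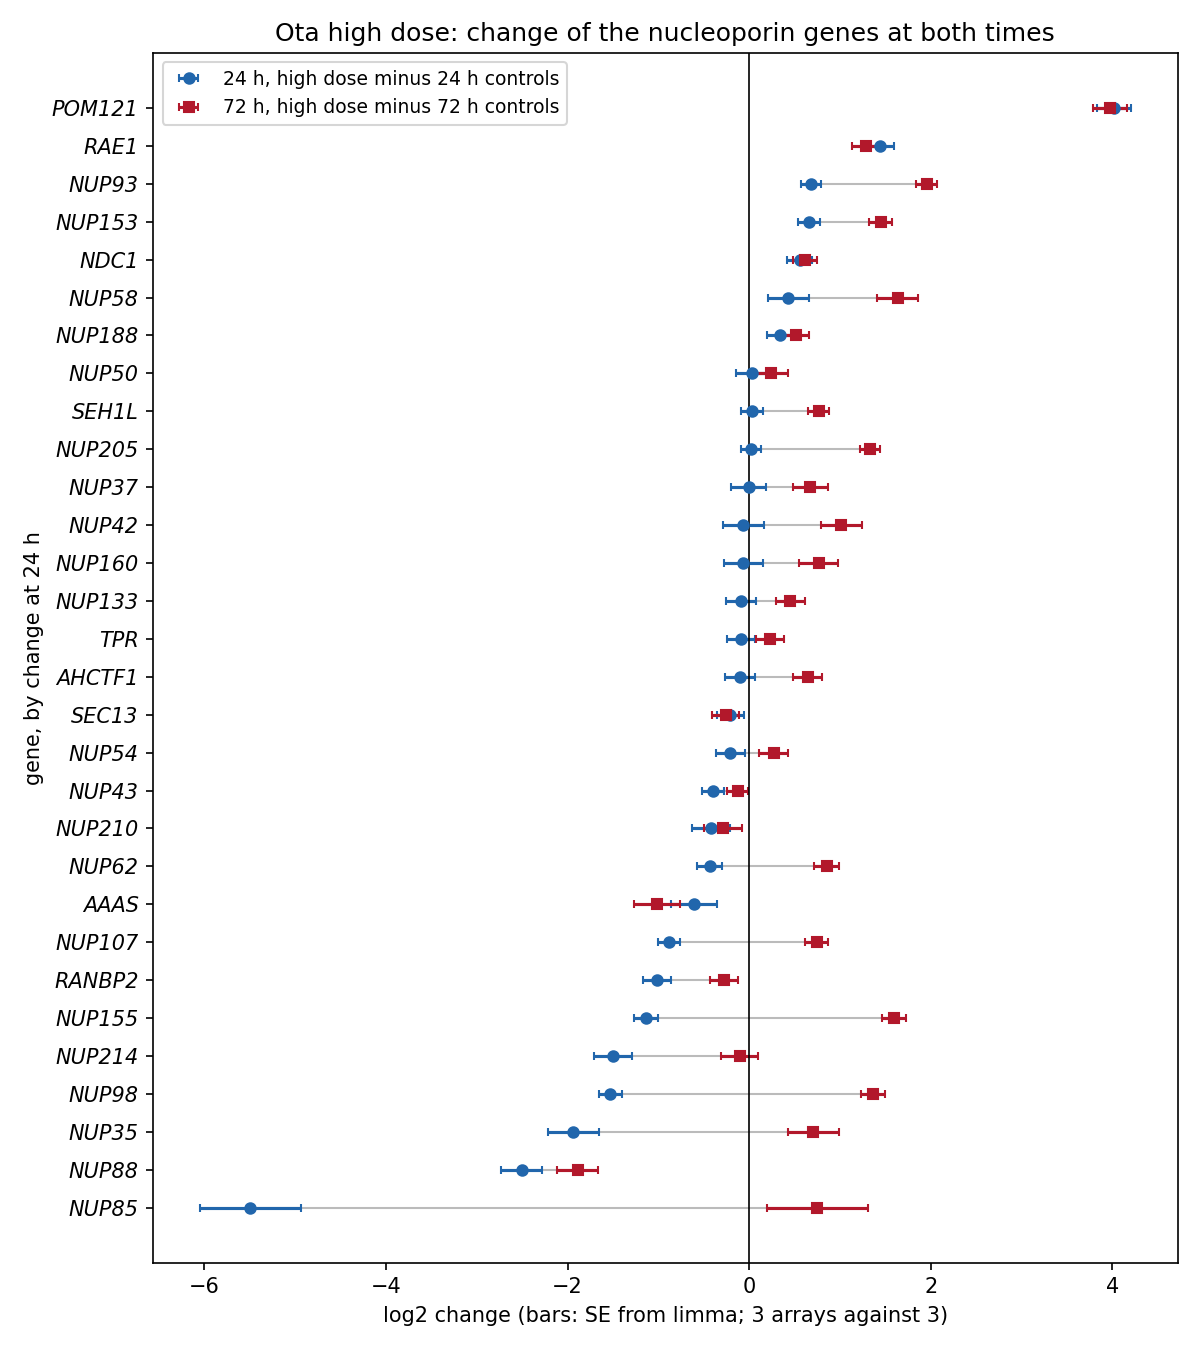
Log2 change of each nucleoporin gene with the Ota high dose at 24 h (circles) and 72 h (squares), each against the vehicle controls of its own time, with the standard error from limma. NUP98 moves from -1.53 to 1.36 and NUP155 from -1.14 to 1.59, while POM121 stays near 4 and NUP88 stays near -2.

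The vehicle controls of Ota differed between the times, which sets the base of the 72 h comparison. Of the 29 members, 24 had a lower mean in the 72 h than in the 24 h controls and 14 were past the call rule downward, where 29.8% of all genes were past it in either direction (14.0% upward, 15.8% downward). The members' median difference was -0.45, against 0.00 over all tested genes. The lowest were NUP205 (-1.42), NUP155 (-1.30), NUP93 (-1.14) and NUP62 (-1.12), beside -1.59 for NUP85. Of the 14, 11 were called higher with the high dose at 72 h. Both comparisons use the same 72 h control arrays, so these 2 calls are not independent, and the like share of all genes was not counted. The high dose mean at 72 h was under the 24 h control mean for 8 of the 14 and at or above it for 6. Set against the 24 h controls instead, 7 of the 19 members that the high dose raised at 72 h lay at least 0.5 above that level, 7 lay above it by less, and 5 lay under it. POM121 (4.22), NUP58 (1.32), RAE1 (1.28), NUP42 (1.20) and NUP153 (1.03) were the most above it, and NUP188 (-0.49) was the most under it. Between Aa controls, 1 of 30 members was called, where 1.29% of all genes were (0.565% higher, 0.729% lower). NUP155 was lower at 48 h by 0.49 ± 0.11 (adjusted p = 0.0347). It was not called without any of the 3 24 h control arrays or the first or second 48 h control array (adjusted p from 0.0742 to 0.178), nor with shifted arrays (adjusted p = 0.0555). With the replicate block 11 members were lower and 0 higher, where 16.3% of all genes were called (7.11% higher, 9.22% lower).

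**Figure D4:**
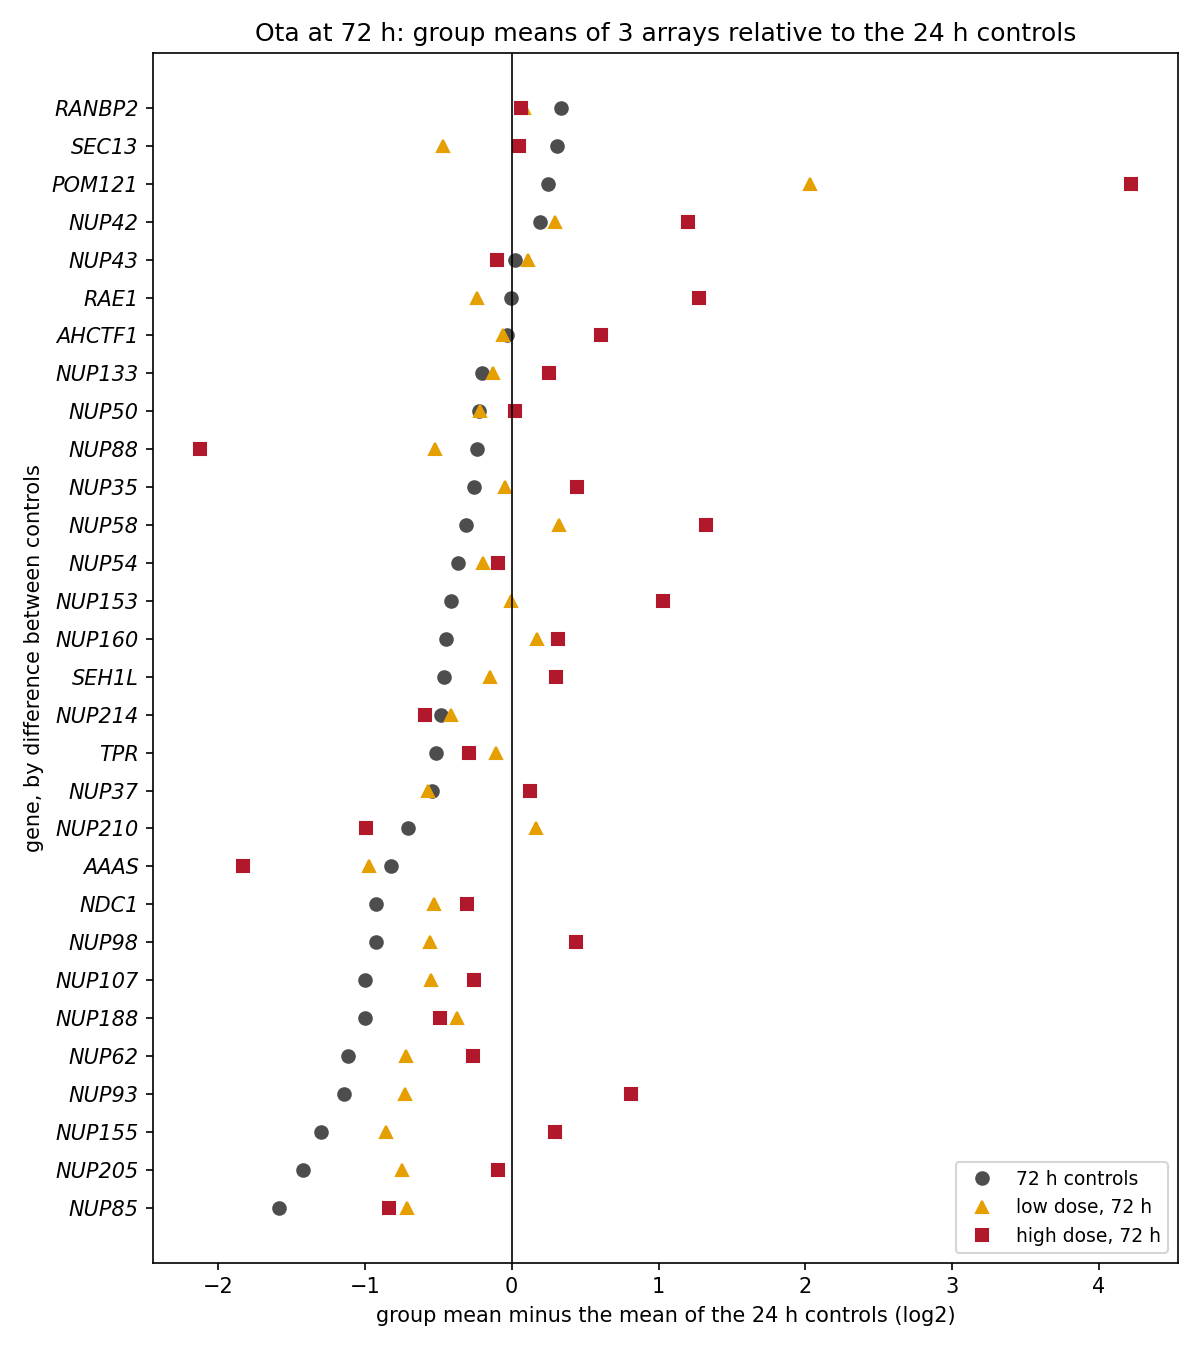
Group means of the nucleoporin genes at 72 h minus the mean of the 24 h Ota controls (log2, 3 arrays a group): 72 h controls (circles), low dose (triangles) and high dose (squares). Most 72 h controls lie left of 0, down to -1.59 for NUP85, and the high dose lies right of its own controls for most genes.

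Genes of cell division also changed in these comparisons. All 10 genes of a proliferation list (MKI67, TOP2A, CCNB1, PCNA and others) were past the call rule downward in the 72 h against the 24 h Ota controls, with a median of -1.61, where 15.8% of all genes were. The log2 of their summed level was 15.25 to 15.42 in the 24 h controls, 14.18 to 14.55 at the high dose at 24 h, 13.77 to 14.03 in the 72 h controls, 14.50 to 14.72 at the high dose at 72 h and 14.72 to 14.83 at the low dose at 72 h. With the high dose 7 of the 10 fell and 0 rose at 24 h (42.4% of all genes lower, 21.6% higher), and 8 rose and 0 fell at 72 h (26.3% of all genes higher, 37.0% lower). MKI67, a mark of cycling cells, fell by 3.33 ± 0.21 and rose by 0.77 ± 0.21, CCNB1, the mitotic cyclin, fell by 3.64 ± 0.25 and was not called at 72 h (0.20), and PCNA, the sliding clamp of replication, fell by 1.21 ± 0.14 and rose by 0.75 ± 0.14. TOP2A was not called at 24 h (-0.08) and rose by 0.90 ± 0.16 at 72 h. At the Aa high dose 2 of the 10 rose and 4 fell at 24 h (51.3% of all genes called), and 4 rose and 3 fell at 48 h (66.0% of all genes called). The summed level there was 15.30 to 15.44 in the 24 h controls against 15.43 to 15.53, and 15.03 to 15.18 in the 48 h controls against 15.26 to 15.31. With Aa at 24 h and 48 h MKI67 changed by -0.14 (not called) and 1.20, CCNB1 by -1.44 and -0.45, PCNA by 0.68 and 0.25, and TOP2A by -0.26 and 0.22 (neither called). The part of cell division in the nucleoporin values was not tested.

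Among markers of other cells, the fibroblast genes DCN, LUM and COL1A1 exceeded 4 on all arrays and COL1A2 and PDGFRB on none. The log2 of the summed fibroblast list was 11.31 to 11.64 in the 24 h Ota controls, 11.40 to 12.06 at the high dose at 24 h, 9.54 to 9.89 in the 72 h controls, 10.65 to 11.23 at the low dose at 72 h and 10.28 to 10.95 at the high dose at 72 h; its part in the results was not tested. Its genes differed: with the high dose COL1A1 fell by 2.07 ± 0.36 and LUM rose by 0.62 ± 0.23 at 24 h, LUM rose by 1.58 ± 0.23 at 72 h, and with the low dose at 72 h DCN rose by 1.27 ± 0.35 and LUM by 1.69 ± 0.23. At the Aa high dose the sum was 10.99 to 11.62 at 24 h against 11.63 to 12.04 in controls, and 11.29 to 11.61 at 48 h against 11.38 to 11.71. None of 5 endothelial genes exceeded 4 on any array. Of 4 distal nephron and 4 leukocyte genes with a probe set, 1 of each exceeded 4 on some arrays; the leukocyte gene was ITGAM, at 4.96 ± 0.62 (SD, n = 3) in Ota high dose at 24 h and 2.35 ± 0.01 in its controls. Of the 6 tested epithelial and tubular genes 3 fell at the Ota high dose at 24 h: KRT18 (-1.37 ± 0.20), KRT19 (-2.31 ± 0.29) and PAX8 (-2.51 ± 0.35). At 72 h 4 fell, KRT19, VIM, CDH2 and PAX8, by 0.31 to 1.68. The Aa high dose lowered 3 at 24 h (KRT18, KRT19 and CDH2) and 4 at 48 h (KRT19, VIM, CDH2 and PAX8), while KRT8 rose by 0.72 ± 0.25 at 48 h. The log2 of their summed list was 14.78 to 15.10 in the 24 h Ota controls against 14.00 to 14.82 at the high dose, 14.77 to 14.78 in the 72 h controls against 13.79 to 14.39, 15.21 to 15.42 in the 24 h Aa controls against 14.73 to 15.04, and 14.79 to 15.24 in the 48 h Aa controls against 14.40 to 14.80. The part of this list in the results was not tested.

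Over the 12 group means, the members most like NUP85 by Pearson's r were NUP214 (0.85), NUP107 (0.81), NUP88 (0.79), NUP98 (0.78) and NUP155 (0.69). The NUP85 values of 1 group, Ota high dose at 24 h, dominate these correlations, and that group is part of the contrast that chose NUP85. Over the 11 groups without Ota high dose at 24 h the values of these genes were 0.87, 0.95, 0.50, 0.36 and 0.68, and the order was another: NUP107 (0.95), NUP188 (0.95), NUP62 (0.92), NUP205 (0.92) and NUP214 (0.87) came first. NUP37 (0.77), NUP54 (0.71) and NUP210 (0.69) also lay above NUP155. The 11 groups still hold the other Ota groups of that contrast, so this order too is only a description.

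Partners of the pore are given by count and by their most changed genes, beside the share of all tested genes called at the high dose: 51.3% and 66.0% with Aa at 24 h and 48 h, and 64.0% and 63.4% with Ota at 24 h and 72 h. Of 23 tested importins and exportins, the receptors that pass through the pore, Aa high dose raised 7 and lowered 2 at 24 h and raised 6 and lowered 7 at 48 h. Ota high dose raised 3 and lowered 11 at 24 h and raised 12 and lowered 5 at 72 h. Called were 39.1% and 56.5% of the list with Aa and 60.9% and 73.9% with Ota, under the share of all genes in 3 of the 4 comparisons. IPO13, an importin that can also export, rose with Aa by 2.00 ± 0.28 and 2.63 ± 0.28, and TNPO2, a transportin, by 1.14 ± 0.09 and 1.59 ± 0.09 (adjusted p from 2.59e-09 to 2.58e-05). With Ota, XPO5, the exporter of microRNA precursors, fell by 3.03 ± 0.22 at 24 h and by 2.11 ± 0.22 at 72 h. KPNA3, an importin alpha, fell by 1.48 ± 0.30 at 24 h, and IPO4, an importin of histones and ribosomal proteins, fell by 2.33 ± 0.18 at 72 h (adjusted p from 1.1e-08 to 0.000517 for these 4 values).

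Of the 5 tested genes of the Ran cycle, which powers this transport, Aa high dose raised 1 at 24 h and 4 at 48 h and lowered none. Ota high dose raised 1 and lowered 4 at 24 h, and raised 3 and lowered 1 at 72 h. With 5 genes, these shares (20.0% and 80.0% with Aa, 100.0% and 80.0% with Ota, against 51.3%, 66.0%, 64.0% and 63.4% of all genes) are coarse. RCC1, which loads Ran with GTP, rose with Aa by 0.41 ± 0.14 and 0.74 ± 0.14 and fell with Ota by 1.84 ± 0.21 and 0.79 ± 0.21. RANBP3, an export cofactor, rose by 0.98 ± 0.27 with Aa at 48 h and fell by 3.26 ± 0.28 with Ota at 24 h (3.11 with values under 4 set to 4). RANBP1, which helps to unload receptors, rose by 1.42 ± 0.14 with Ota at 72 h.

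Of 14 tested mRNA export genes, Aa high dose raised 5 and lowered 1 at 24 h and raised 7 and lowered 2 at 48 h, and Ota high dose raised 4 and lowered 7 at 24 h and raised 6 and lowered 4 at 72 h. That is 42.9% and 64.3% of the list called with Aa (51.3% and 66.0% of all genes) and 78.6% and 71.4% with Ota (64.0% and 63.4% of all genes). DDX19B, the helicase docked on NUP214, rose by 2.10 ± 0.36 with Aa at 24 h, and its activator GLE1 by 1.17 ± 0.09 at 48 h. MCM3AP, the scaffold of the export complex at the basket, rose by 1.40 ± 0.11 at 48 h. THOC1, a subunit of the THO complex, fell by 1.10 ± 0.22 with Aa at 24 h and by 3.32 ± 0.33 with Ota at 24 h. With Ota, DDX19A fell by 2.15 ± 0.18 at 24 h, while at 72 h DDX39A, an export helicase, rose by 2.27 ± 0.15 and THOC5, another THO subunit, fell by 1.75 ± 0.21.

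Of 14 genes of the lamina and inner nuclear membrane, which border the pores, Aa high dose raised 2 and lowered 5 at 24 h and raised 3 and lowered 7 at 48 h, and Ota high dose raised 1 and lowered 8 at 24 h and raised 4 and lowered 7 at 72 h. The shares called were 50.0% and 71.4% with Aa (51.3% and 66.0% of all genes) and 64.3% and 78.6% with Ota (64.0% and 63.4% of all genes). SYNE2, a nesprin that ties the nucleus to the cytoskeleton, fell with Ota by 3.20 ± 0.46 at 24 h and by 5.68 ± 0.46 at 72 h (5.48 with values at or under 4 set to 4). LMNB1, lamin B1, fell by 3.22 ± 0.28 with Ota at 24 h and by 1.02 ± 0.15 with Aa at 24 h, and SUN2, its link to the nesprins, by 1.18 ± 0.27 with Aa at 24 h. SYNE1 fell by 2.48 ± 0.28 and LBR, the lamin B receptor, by 1.57 ± 0.19 with Aa at 48 h, and SYNE1 by 1.58 ± 0.20 with Ota at 72 h.

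SEC13 also belongs to the COPII vesicle coat, and both SEC13 and SEH1L belong to the GATOR2 complex that senses amino acids. Of 11 tested partners, Aa high dose raised 4 and lowered 3 at 24 h and raised 3 and lowered 6 at 48 h, and Ota high dose raised 1 and lowered 6 at 24 h and raised 3 and lowered 4 at 72 h. The shares called were 63.6% and 81.8% with Aa (51.3% and 66.0% of all genes) and 63.6% at both times with Ota (64.0% and 63.4% of all genes). SEC24D, a cargo adaptor of the coat, fell with Aa by 0.73 ± 0.26 and 1.70 ± 0.26 and with Ota by 2.76 ± 0.31 and 2.30 ± 0.31. SEC31A, of the outer coat with SEC13, fell by 2.30 ± 0.17 with Ota at 72 h. SEC23A fell by 0.53 ± 0.14 with Aa at 24 h and SEC24A by 0.86 ± 0.22 at 48 h. MIOS, a GATOR2 subunit, was at least 11.8-fold lower with Ota at 24 h, from a mean of 7.56 to 3 arrays at or under 4 (adjusted p = 8.57e-11).

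Of the other probe sets of the members, 31 were tested with Aa and 30 with Ota. Those called together with their main set in a high dose comparison most often went the same way as it. The counts were 6 of 6 with Aa at 24 h, 7 of 9 at 48 h, 4 of 6 with Ota at 24 h and 9 of 10 at 72 h. The exceptions were AHCTF1 and TPR with Aa at 48 h, 2 sets of RANBP2 with Ota at 24 h and NUP58 at 72 h. Sets called where the main set was not, such as those of TPR with Ota at 24 h, are outside these counts.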

How the data were processed

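RNA of 36 HK-2 cultures was measured on Affymetrix arrays. The deposited values are log2 expression per probe set, made with GCRMA per the submitters' processing notes; its version is not given in the sources used here, nor whether all arrays were normalized together. GCRMA smooths values near background, so differences among low values are compressed. Of 54675 probe sets, 62 control sets were left out; 41091 carried 1 gene symbol in the platform's annotation, 1801 several and 11721 none, and the last 2 kinds were not named. A gene was read from its set with the highest mean over all arrays, sets marked as cross-hybridising last.

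Genes above 4 on at least 3 arrays of a compound were tested with limma 3.58.1 (R 4.3.3; lmFit and eBayes on group means, 18 arrays per compound, two-sided, Benjamini-Hochberg over all genes tested, threshold 0.05). A difference from a group with every array at or under 4 is given as a lower bound against 4. The procedure was tested on simulated data. Figures were drawn with matplotlib 3.10.9. The members and the lists were chosen with earlier results of these data known. The named genes are the members, and for each other list the 2 called genes with the largest change in each high dose comparison, plus MKI67, TOP2A, CCNB1 and PCNA; repeat comparisons of those genes are given beside them.

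Same-numbered Aa arrays deviated together: all 45 pairs correlated above 0.1 (0.19 to 0.60, median 0.43, against -0.21 for different numbers), so the number pairs the Aa arrays, and it comes from the labels' replicate numbers. Alternatives were quantile normalization, arrays shifted to a common median, no filter, values floored at 4, all 36 arrays in 1 fit, the replicate block, the mean of all probe sets and leaving out each array. Arrays were left out in fits without the replicate block, also for Aa, so those fits did not use the pairing. No 2 arrays held identical values (highest correlation 0.9972).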

Additional observations from a re-analysis of the deposited data

Results flagged for a closer look

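With the Aa high dose, 3 members changed differently at 48 h and 24 h by a test of the difference itself (limma, 3 arrays per group): NUP43 (-0.57), NUP155 (0.60) and NDC1 (-0.70). NUP155 also lay under all its controls at 24 h and above all of them at 48 h on every array. At 48 h the nearest arrays read 9.304 at the high dose and 9.3 in controls. Its controls were lower at 48 h than at 24 h, and the high dose arrays changed less.

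With the Ota high dose, every array of 6 members, NUP85 among them, lay under all controls at 24 h and above all controls at 72 h. How many of all genes did so at either dose was not counted. The effect was higher at 72 h by 1.62 for NUP107, 6.24 for NUP85, 2.73 for NUP155, 2.64 for NUP35, 1.29 for NUP62 and 2.89 for NUP98. With the Ota low dose the same held for 5 members, with differences of 0.51 for NUP107, 1.28 for NUP85, 0.82 for NUP205, 0.79 for NUP155 and 0.72 for NUP62. These differences with Ota were not tested, because that contrast chose the genes. The low dose change of NUP107 at 24 h was only -0.06. With arrays shifted to a common median the high dose fall of NUP107 at 24 h was not called (-0.25), and NUP62 turned positive (0.20).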

How the results depend on the processing

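Over 414 values of single members (150 of them called), quantile normalization ended 3 calls and added 14, arrays shifted to a common median ended 20, added 44 and turned 4, and no filter ended 8 and added 5. The floor of 4 added 2, all 36 arrays in 1 fit ended 11 and added 14, the replicate block ended 1 and added 55, and the mean of all probe sets ended 30, added 43 and turned 6. Leaving out 1 array at a time, over 2664 values, ended 129 calls, added 45 and turned 0.

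The counts of called members that moved by over 1.5 times were these. With the replicate block they were 24 for Aa high dose at 24 h, 11 for the low dose at 24 h, 14 for high against low at 24 h, 12 for the low dose at 48 h, 8 for the change of effect over time and 11 for the Aa controls. Beside the calls it added against controls, the block added 7 calls with Aa for high against low dose at 24 h, 3 at 48 h, 5 for the change over time and 10 for the controls, and changed no other call. With all 36 arrays the count was 4 for the Aa low dose at 48 h and 2 for the Aa controls. With shifted arrays it was 0 for the Aa controls, 24 for Ota high dose at 24 h and 1 for the Ota low dose at 24 h; without the filter the last was 1, and as the mean of probe sets 4. The cause was not tested.

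Signs turned as the mean of probe sets for NUP160 (-0.11) and NUP188 (-0.071) with Aa high dose at 24 h, for AHCTF1 (-0.029), RANBP2 (-0.018) and NUP153 (0.36, adjusted p = 0.022) with Aa high against low dose at 48 h, and for RANBP2 (0.16) with Ota high dose at 24 h. With shifted arrays they turned for NUP43 (0.24), NUP62 (0.20) and AAAS (0.031) with Ota high dose at 24 h and for TPR (0.11) high against low at 24 h.

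Leaving out 1 array gave 13 to 16 members with Aa high dose at 24 h, 2 to 5 with the low dose, 5 to 9 for high against low, 14 to 18, 4 to 8 and 10 to 16 for the same comparisons at 48 h, 2 to 4 for the change over time and 0 to 2 for the Aa controls. With Ota it gave 14 to 17, 1 to 2 and 13 to 15 at 24 h, 19 to 20, 5 to 8 and 17 to 18 at 72 h, 14 to 18 for the change over time and 11 to 12 for the Ota controls.

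For Ota same-numbered arrays deviated together less than with Aa (24 of 45 pairs above 0.1, from -0.07 to 0.41, median 0.11, against -0.07 for different numbers). With the number as a block the call of AAAS at the high dose at 24 h was lost (adjusted p = 0.0583), NUP160 and NUP62 were gained at the low dose at 72 h (adjusted p = 0.0345 and 0.0498), and no other Ota call against controls changed. With 3 arrays a group, values near or under 4 give only bounds.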
